A study of Mus musculus with 12 samples.

Results

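SOX2 binding was examined at 10 genes of fibroblast growth factor (FGF) signalling in mouse embryonic stem cells. They are the ligand genes Fgf4 and Fgf5, the receptor genes Fgfr1 and Fgfr2, the inhibitor genes Spry2, Spry4, Spred1 and Dusp6, and the Ets factor genes Etv4 and Etv5. The genes were chosen by name, as ligands, receptors, feedback inhibitors and Ets effectors of the pathway. They are 10 of the 21887 protein-coding genes of the RefSeq annotation used here. Earlier results of these data were known when the list was chosen. Shares set beside those of all genes below therefore describe this list and test nothing. A gene was counted as having a SOX2 region when the midpoint of a listed peak lay within 50 kb of its annotated span. All 10 matched the annotation by symbol.

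The study mapped SOX2, a transcription factor of pluripotent cells, by chromatin immunoprecipitation and sequencing (ChIP-seq) in the mouse embryonic stem cell line E14. The 12 libraries formed 4 groups, mitotic ChIP, mitotic input, asynchronous ChIP and asynchronous input, with 3 biological replicates in each. Mitotic cells had been held overnight in nocodazole, which blocks the spindle, and after fixation were sorted for H3S10p, a histone mark of condensed chromosomes. All groups grew in 10% serum with leukemia inhibitory factor, 3 μM CHIR99021, a GSK3 inhibitor, and 0.8 μM PD184352, an inhibitor of MEK. The ERK branch was thus under an inhibitor in both conditions, and no library of these 12 was grown without it.

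In this pathway a secreted FGF binds a receptor tyrosine kinase, and adaptor proteins pass the signal through RAS, RAF and MEK to the kinase ERK. ERK raises transcription of genes that include the Ets factors Etv4 and Etv5 and its own inhibitors. Sprouty and Spred proteins act on the steps around RAS and RAF, and the phosphatase encoded by Dusp6 removes phosphate from ERK. In mouse embryonic stem cells FGF4 made by the cells themselves drives this loop and prepares them to leave naive pluripotency, and inhibition of MEK is widely used to hold that state. Fgf4 is also a classical SOX2 target, through an enhancer in its last exon that SOX2 and its partner POU5F1 occupy together.

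Mitotic cells were represented by 84 SOX2 regions and asynchronous cells by 10351 regions, each a single list called on 3 pooled replicates. The lists carry the q-value tags 0.05 (mitotic) and 0.01 (asynchronous), give positions with no score or read count, and leave the sequencing depth unknown. Replicates had no values of their own, so no difference between conditions was tested, and no value below has a replicate error. The files hold no expression values to check the cell type. Sox2, Pou5f1 and Nanog, genes of the pluripotency network, had 0 mitotic regions each and 3, 6 and 3 asynchronous regions within 50 kb.

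The region at the start of Dusp6 was the one region of these genes for which letters could be shown, because it overlapped a RefSeq promoter window, which runs from 250 bases before to 50 bases after a gene start. Promoter windows were given for 7 of the 10 genes (Fgf4, Fgf5, Fgfr2, Spry2, Spred1, Dusp6 and Etv5, the last with 2 starts). None was given for Fgfr1, Spry4 or Etv4. The windows were searched on both strands for 4 short words, which are ATTGTT and ACAAAG, cores of SOX sites, the octamer ATGCAAAT bound by POU factors, and TTGTNATGC, from the composite of both. Shown here, from RefSeq on GRCm38.p6 and 5′ to 3′ on the + strand, are the part of the Dusp6 window that lay under the asynchronous region (chr10:99263074-99263280) and, for comparison, the windows of Spred1 (chr2:117120821-117121120) and Fgf5 (chr5:98253934-98254233), which held a word but no region. Capitals mark the words found.
Dusp6: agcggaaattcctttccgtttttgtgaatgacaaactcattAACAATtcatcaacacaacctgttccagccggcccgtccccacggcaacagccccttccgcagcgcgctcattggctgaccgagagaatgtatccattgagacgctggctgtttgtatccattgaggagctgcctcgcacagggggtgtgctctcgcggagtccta
Spred1: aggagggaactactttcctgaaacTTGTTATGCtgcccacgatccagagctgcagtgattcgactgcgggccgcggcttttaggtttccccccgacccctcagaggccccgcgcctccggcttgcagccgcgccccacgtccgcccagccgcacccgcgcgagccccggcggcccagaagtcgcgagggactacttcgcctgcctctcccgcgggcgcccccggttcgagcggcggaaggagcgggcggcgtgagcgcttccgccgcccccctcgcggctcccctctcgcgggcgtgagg
Fgf5: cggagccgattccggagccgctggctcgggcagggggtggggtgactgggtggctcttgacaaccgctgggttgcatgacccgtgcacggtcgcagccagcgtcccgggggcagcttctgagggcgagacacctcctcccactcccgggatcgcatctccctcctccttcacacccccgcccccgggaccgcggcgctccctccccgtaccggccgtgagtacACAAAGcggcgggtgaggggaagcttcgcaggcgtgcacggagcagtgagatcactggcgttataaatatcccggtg

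The Dusp6 region covered 207 bases of the window. That part of the region held the word ATTGTT once, read on the other strand (AACAAT), beginning 116 bases before the gene start. The rest of the region lay beyond the window and was not searched. Of all 32851 promoter windows, 10.7% held this word, and among the 512 windows that overlapped an asynchronous region 19.1% did. Either SOX core was found in 4 of the 8 windows of these genes, those of Fgf5, Spry2, Dusp6 and the inner start of Etv5, against 27.0% of all windows and 49.6% of the overlapped ones. The Dusp6 match was inside a region and the other 3 were not. The composite word was found in 1 of the 8 windows, that of Spred1, against 0.731% of all windows and 2.34% of the overlapped ones. The octamer (1.74% of all windows and 4.88% of the overlapped ones) was found in none of these genes' windows. These words are matches of letters and were not tested as binding sites. Of all windows, 0.0122% overlapped a mitotic region and 1.56% an asynchronous one.

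None of the 10 genes had a mitotic region within 50 kb, whereas all 10 had an asynchronous one. Among all protein-coding genes, 0.836% had a mitotic region and 45.5% an asynchronous region at this distance. At 10 genes, a count of 0 leaves room for a share as high as 30% (3 counts of 10), and the share over all genes predicted 0.0836 genes, so an absence in mitosis was not detectable in so short a list. Nor did any of the 10 have a mitotic region within 10 kb (background 0.343%), within 1 kb (0.251%) or inside the gene (0.238%). The nearest mitotic region lay between 1.82 Mb (Fgf5) and 91.6 Mb (Spry2) away, with a median of 10.6 Mb. The region nearest to Fgf5, at chromosome 5, 96436157 to 96436329, had Fras1 as its closest gene. The next nearest, 4.92 Mb from Spred1 and 5.91 Mb from Fgfr2, were closest to Spg11 and Mki67.

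In asynchronous cells the 10 genes had 25 distinct regions. Fgf4 and Etv5 had 4 each, Fgfr1, Spry2 and Etv4 had 3 each, Fgfr2, Spry4 and Dusp6 had 2 each, and Fgf5 and Spred1 had 1 each. At least 2 regions were present at 8 of the 10 genes, against 18.4% of all protein-coding genes, at least 3 at 5 genes, against 7.35%, and at least 4 at 2 genes, against 3.08%. The windows of the 10 genes spanned 1.35 Mb and held 18.6 regions per Mb, against 4.84 per Mb over the merged windows of all protein-coding genes. Gene length was similar, with a median of 19207 bp for the 10 genes and 17169 bp for all.

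**Figure D1:**
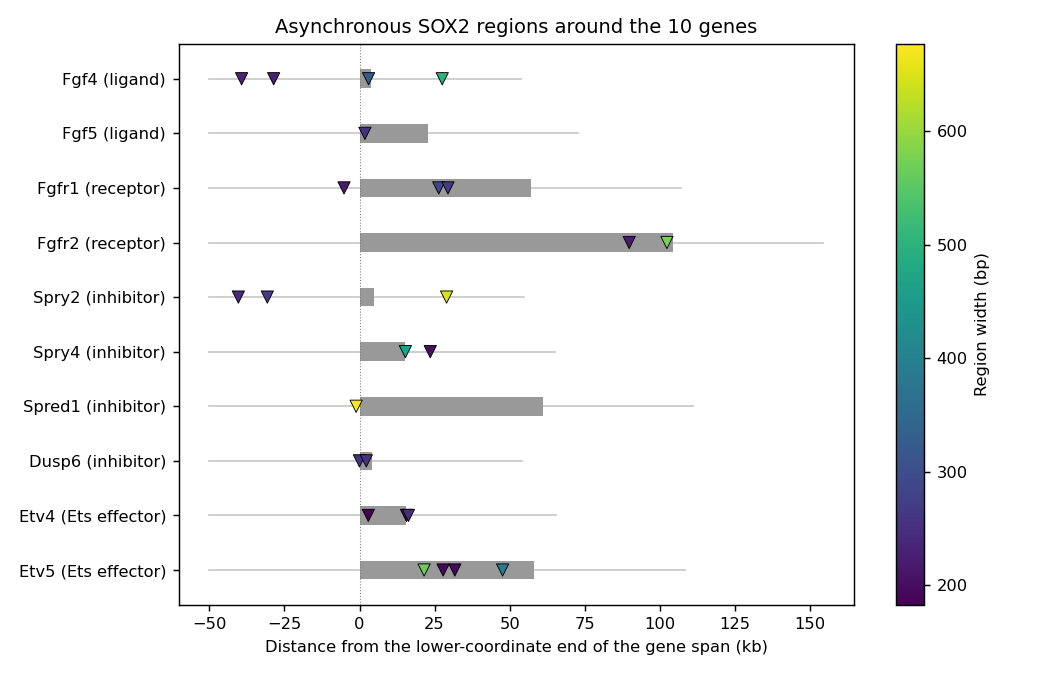
Position of each asynchronous SOX2 region (triangles, coloured by width in bp) relative to the lower-coordinate end of the gene span (x axis, kb), 1 row per gene; thick bars are gene spans and thin lines the 50 kb on either side. Spry2 has its 3 regions outside the gene, Etv5 has all 4 inside, and the pair at Dusp6 lies at the start and within the gene.

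Many regions lay close to the genes. Within 10 kb, 9 of the 10 genes had an asynchronous region (background 23.8%). The exception was Spry2, whose nearest region was 24.1 kb away. Within 1 kb of the gene span, the inside included, 8 genes had one (background 16.5%). A region midpoint lay inside the gene itself for 7 of the 10, Fgf4, Fgf5, Fgfr1, Fgfr2, Dusp6, Etv4 and Etv5 (background 14.8%). These 12 inside regions were 48.0% of the 25, against 60.8% of all asynchronous regions within 50 kb of a gene, where any gene counts. Regions also lay close to each other: 19 of the 25 had another asynchronous region within 20 kb (76.0%), against 28.5% of the whole list. The median distance to the next region was 9.65 kb, against 49.9 kb for the whole list. The whole list is an unlike set, because only 78.9% of its regions lay within 50 kb of a gene, as all 25 do.

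The ligand genes differed in the number and place of their regions. Fgf4 encodes the FGF that embryonic stem cells secrete, and lies at chromosome 7, 144861386 to 144865245. Its inside region, at 144864235 to 144864554, was 320 bp wide and centred 3.01 kb after the gene start and 851 bp before the gene end. The annotation used here gives no exons, so the last exon could not be delimited. The other 3 regions counted for Fgf4 were nearer to neighbouring FGF genes. Regions at 144821994 to 144822227 and 144832675 to 144832902 lay 39.3 and 28.6 kb from Fgf4 but 16.5 and 5.82 kb from Fgf3, and the region at 144888675 to 144889173 lay 23.7 kb from Fgf4 but 7.61 kb from Fgf15, the mouse counterpart of human FGF19. The last was the widest of the 4, at 499 bp, width percentile 91.1 of the asynchronous list.

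Fgf5, a ligand that marks cells leaving the naive state, had 1 region at chromosome 5, 98255844 to 98256098. It was 255 bp wide (percentile 37.5), and lay inside the gene (98254184 to 98277033), 1.79 kb after the start. No other protein-coding gene reached into the 50 kb around Fgf5, and the next region was 162 kb away. The gene thus had a single SOX2 region at its 5′ side where Fgf4 shared a stretch of 4 with its neighbours.

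The receptor genes carried regions inside the gene. Fgfr1, which encodes the main FGF receptor of mouse embryonic stem cells, spans chromosome 8, 25518759 to 25575718. It had a pair of regions in its middle, at 25545008 to 25545294 (287 bp) and 25548077 to 25548342 (266 bp), 2782 bp apart. The remaining region, at 25513482 to 25513699, was 218 bp wide and lay 5.17 kb beyond the lower-coordinate end. All 3 were nearest to Fgfr1, and none was wider than the median of the list.

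Fgfr2, whose product signals in the primitive endoderm and trophoblast lineages, spans chromosome 7, 130162451 to 130266808 on the - strand. Its wide region, at 130264537 to 130265112, was 576 bp (percentile 96.0) and lay 1.98 kb after the start. The other, at 130252147 to 130252365, was 219 bp wide and lay 14.6 kb after the start. The 89696 bp between this region and the other end of the long gene held no listed region.

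The widest regions of the 25 belonged to inhibitor genes. Spred1, a brake on RAS activation, had 1 region, the widest of the 25 at 677 bp (percentile 98.4). It lay at chromosome 2, 117119608 to 117120284, 1.13 kb before the gene start, and ended 537 bp short of the promoter window shown above. Spry2, a Sprouty protein induced by receptor signalling, spans chromosome 14, 105891947 to 105896819 on the - strand. Its widest region, 649 bp (percentile 97.9), lay 24.1 kb upstream of the start, at 105920620 to 105921268. The other regions of Spry2, at 105851467 to 105851713 and 105861102 to 105861370, were 247 and 269 bp wide and lay 40.4 and 30.7 kb beyond its 3′ end. No other protein-coding gene reached into the windows of Spred1 or Spry2.

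Spry4, another Sprouty gene, spans chromosome 18, 38586247 to 38601347. A region of 461 bp (percentile 87.2), at 38601291 to 38601751, spanned the upper-coordinate end of the gene, with its midpoint 0.174 kb outside Spry4 and 0.096 kb outside the neighbouring gene Arhgap26. The second region, 203 bp wide, at 38609700 to 38609902, lay inside Arhgap26, 8.45 kb from Spry4. Both regions were thus nearer to Arhgap26, and which gene they serve was not tested.

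Dusp6 is a short gene, at chromosome 10, 99263231 to 99267489. It had a region across its start, at 99263074 to 99263330, with the midpoint 0.029 kb before the start, and another inside it, at 99265356 to 99265612, 2.25 kb after the start. Both were 257 bp wide (percentile 38.2), with 2025 bp between them. No other protein-coding gene reached into the window of Dusp6.

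The Ets factor genes had regions in different places. Etv4 spans chromosome 11, 101769747 to 101785310. It had a pair of regions at the upper-coordinate end, at 101785293 to 101785480 (188 bp), which spanned that end, and 101785910 to 101786157 (248 bp), 429 bp apart. Another, at 101772588 to 101772770, lay inside the gene. At 183 bp it had the smallest width of the asynchronous list, which 460 regions share.

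Etv5, at chromosome 16, 22381313 to 22439570 on the - strand, held all 4 of its regions inside the gene. They lay 10.6, 26.5, 30.4 and 36.8 kb after the outer start. The first, at 22428770 to 22429155, was 386 bp wide, and the last, at 22402534 to 22403099, was 566 bp (percentile 95.5). The middle regions, at 22412952 to 22413149 and 22409055 to 22409248, were 198 and 194 bp wide. Neither annotated start of Etv5 had a region, and the nearest edge was 9164 bp from the inner promoter window. Etv4 and Etv5, which encode close relatives, thus differed in part. Etv4 had 2 regions at a gene end and 1 inside, and Etv5 had all 4 inside. The spans also differ in length, 15564 bp for Etv4 and 58258 bp for Etv5.

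**Figure D2:**
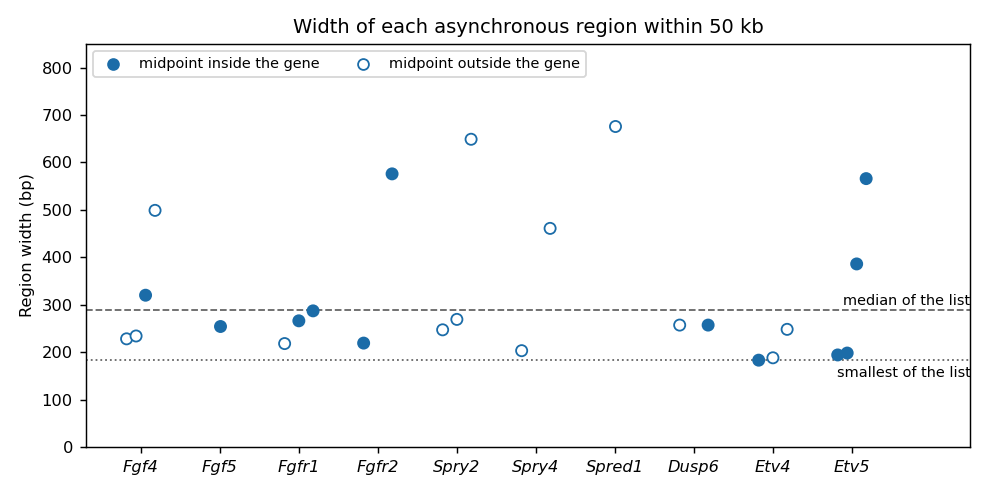
Width in bp (y axis) of each of the 25 asynchronous regions, by gene; filled points have their midpoint inside the gene and open points outside it, and lines mark the median (289 bp) and smallest width (183 bp) of the whole list. Spred1, Spry2, Fgfr2, Etv5 and Fgf4 each have a region above percentile 90, while every region of Fgfr1, Dusp6, Fgf5 and Etv4 is below the median.

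Widths of the 25 regions ran from 183 to 677 bp, with a median of 257 bp against 289 bp for the whole list. They had no single level: 17 were below percentile 50 of the list and 5 above percentile 90. Those 5 belonged to Fgf4, Fgfr2, Spry2, Spred1 and Etv5, 1 each. Width also depends on depth and peak calling and is no measure of binding strength. With regions wider than the median alone, 6 of the 10 genes had one within 50 kb, against 26.7% of all protein-coding genes. Fgfr1, Fgf5, Dusp6 and Etv4 then had none.

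The assignment of a region to a gene was least certain at Fgf4 and Spry4. For 20 of the 25 regions the gene counted was also the nearest protein-coding gene, and the 5 others were the 3 between the FGF genes and the 2 at Spry4. With each region given to its nearest gene alone, 9 of the 10 genes kept at least 1 (background 23.5%), Fgf4 kept 1 and Spry4 none. At 5 genes, Fgf5, Fgfr2, Spry2, Spred1 and Dusp6, no other protein-coding gene reached into the window.

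Around the 50 kb limit, the farthest regions counted were those at 40.4 kb (Spry2) and 39.3 kb (Fgf4). The nearest left out were at 56.0 kb (Fgfr1, 486 bp wide) and 57.7 kb (Spred1, 219 bp). The numbers in the peak names ran without a gap among the regions of each of the 8 genes with at least 2 regions. Between the regions flanking each window 0 to 3 numbers were not in the list, so that unlisted peaks may lie in or beside some windows. Over the whole lists, 5239 numbers up to 15590 (asynchronous) and 47 up to 131 (mitotic) were not listed.

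Relatives of the 10 genes in the same families had between 0 and 3 regions each. Spry1 had 2 regions within 50 kb. Spry3 had 0 at its annotated position, chromosome X, 101352 to 110912. That position was not checked, so the 0 may not describe the gene. Spred2 had 1, inside the gene, and Spred3 had 0. Fgfr3 and Fgfr4 had 0 each, with the nearest region 89.1 and 78.7 kb away. Etv1, which completes the group of Etv4 and Etv5, had 2, the nearer one 0.631 kb from the gene. Of the other ERK phosphatase genes, Dusp4 had 3, Dusp7 and Dusp9 had 1 each, and Dusp5 had 0, with the nearest region 68.7 kb away. The regions counted for Dusp7 and Dusp9 were each nearer to another gene. The difference between family members was not tested.

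**Figure D3:**
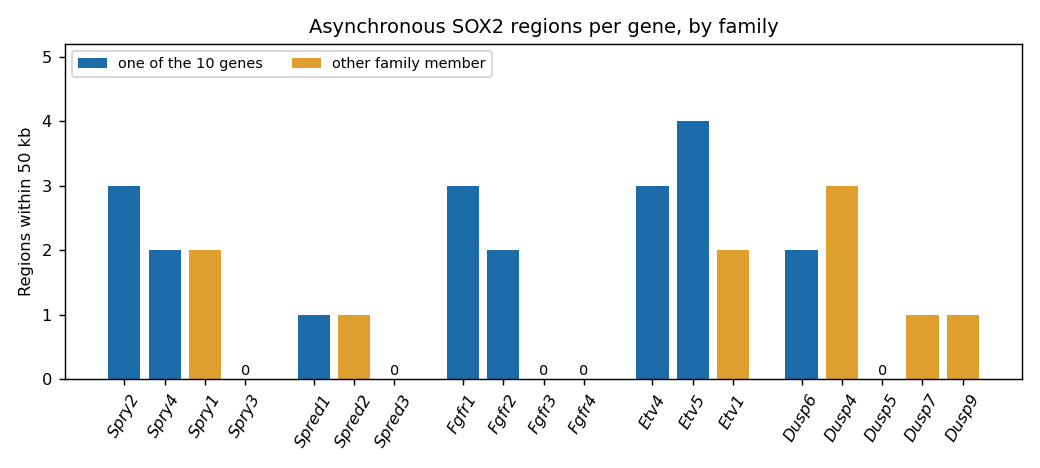
Number of asynchronous SOX2 regions with midpoint within 50 kb of the gene span (y axis) for the Sprouty, Spred, FGF receptor, Etv1/4/5 and ERK phosphatase families; blue bars are genes of the 10 and orange bars other family members. Fgfr3, Fgfr4, Spry3 (at an annotated position that was not checked), Spred3 and Dusp5 have 0, and Etv5 has the most, with 4.

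The rest of the pathway was taken from a list of 73 further genes sorted by role. Of these, 0 had a mitotic region within 50 kb and 44 (60.3%) an asynchronous one, against backgrounds of 0.836% and 45.5%. At so low a mitotic background, 73 genes are also too few for an absence in mitosis to be detectable. The share was 45.0% for 20 other FGF ligand genes, close to the background, and 40.0% for 5 receptor and co-receptor genes. It was 61.9% for 21 genes of the core cascade, 61.5% for 13 inhibitor genes and 85.7% for 14 Ets and early response genes. When a region was counted for its nearest gene alone, 28 of the 73 had one, against a background of 23.5%. Most of the Ets and early response genes counted within 50 kb were not the nearest gene to any of their regions. Their share of 85.7% thus depends on the rule of assignment. The shares of the ligand, core cascade and inhibitor genes also fell under the nearest-gene rule, as did the background.

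Among the other ligands, Fgf3 had 4 regions, the same 4 as Fgf4, and Fgf1 had 3. Fgf9, Fgf15, Fgf17 and Fgf18 had 2 each. Those of Fgf9 both lay inside the gene, and those of Fgf17 were both nearer to another gene. Fgf2, whose product is often added to stem cell cultures, had 0, with the nearest region 221 kb away. Fgfrl1, which encodes a receptor without a kinase, had 2 and the co-receptor gene Kl had 1. In the cascade, the scaffold gene Ksr1 and the ERK target kinase gene Rps6ka1 had 3 each, and Frs3, Grb2, Gab1, Hras and Nras had 2 each. Those of Hras and Nras were all nearer to another gene. The kinase genes Map2k1 and Mapk3 had 0 and Map2k2 had 1. Among inhibitors Il17rd, a membrane inhibitor of FGF signalling, had 2 regions inside the gene, the wider of them 598 bp. Among effectors Ets1 had 3, and Fos, an immediate early gene, had 2, both inside.

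**Figure D4:**
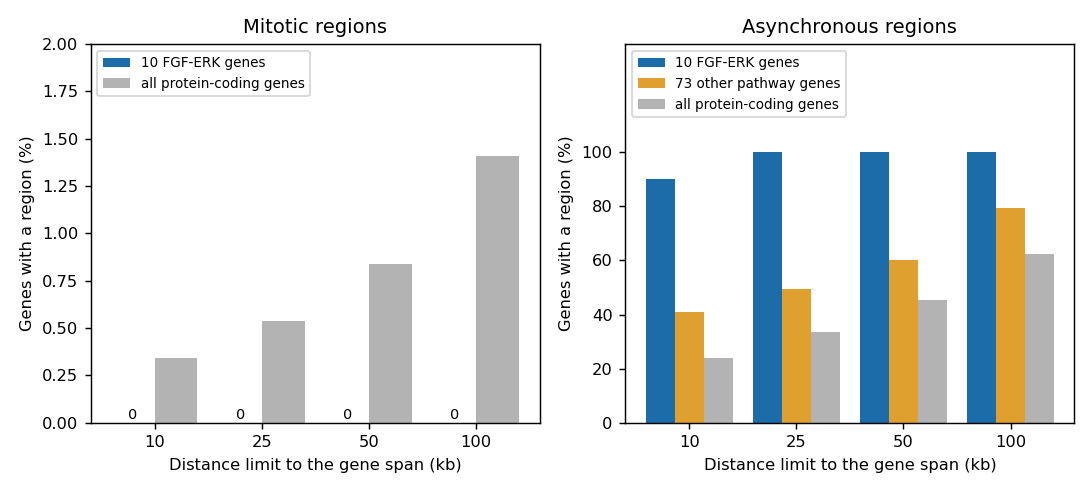
Share of genes (y axis, %) with a mitotic region (left, y axis to 2%) and an asynchronous region (right) within 10, 25, 50 or 100 kb of the gene span, for the 10 FGF-ERK genes (blue), 73 other pathway genes (orange, right panel) and all protein-coding genes (grey). The 10 genes are at 0% for mitotic regions and at 90% to 100% for asynchronous regions, where all protein-coding genes run from 23.8% to 62.4%.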

How the data were processed

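SOX2 ChIP-seq data of 12 libraries were used as 2 deposited peak lists. The tools named in the submitters' processing notes are Bowtie2 2.2.1 and MACS2, whose version is not given in the sources used here, and the build is mm10. Per the labels, each list came from ChIP against input over 3 replicates, with blacklisted regions taken out. The deposited values are chromosome, start, end and name (unit other: positions in bp), with no score. The q-value tags, 0.05 (mitotic) and 0.01 (asynchronous), were read from the deposited names.

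Starts were converted to count from 1, and 181 repeated asynchronous entries were merged, which left 10351 regions. Gene spans on 21 chromosomes came from RefSeq GRCm38.p6, which mm10 names. Strand and gene starts came from the RefSeq promoter table. Width percentiles are mid-ranks within a list. Counting within 50 kb was checked on 200 genes with regions planted at or beyond the ends of their spans. Counts inside genes and the assignment to the nearest gene were not checked in this way. Python 3.11.15, pandas 2.3.3 and numpy 2.4.6 were used.

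Named genes were the 10 members, the pathway genes with the most regions per role (up to 4, ties included) and neighbours nearer to a counted region. Other relatives and Fgf2, Map2k1, Map2k2 and Mapk3 were added with their values in view. Some genes that fall under the rule are not reported here. Members and lists were chosen with earlier results of these data known. Depth is unknown. Limits for a count of 0 cover counting error only.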

Additional observations from a re-analysis of the deposited data

How the results depend on the processing

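Each of 4 counts was recomputed under 8 alternatives (limits of 10, 25 and 100 kb, regions wider than the median of their list, region edges, gene starts, nearest gene alone and repeated entries as listed). The count of the 10 genes with a mitotic region was 0 under all 8. Use of wide regions alone lowered, by construction, the genes with an asynchronous region to 6 of 10, the regions near them to 8 and the pathway genes to 29 of 73. Nearest gene alone lowered the pathway genes to 28 of 73. The other 28 recomputed values stayed within 1.5 times. No paired analysis was possible because each condition has 1 list over pooled replicates, and for the same reason no replicate could be left out. Depth is unknown, so a gene without a region may have one below the threshold.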

Other observations

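Further from the genes, 15 asynchronous regions lay between 50 and 200 kb of 8 of the 10 genes, and for 5 of them the gene was the nearest protein-coding gene. Of all protein-coding genes, 69.2% had a region in this band, so the count of 8 is near the background. Dusp6 had a pair of such regions, 86.2 kb away at chromosome 10, 99353374 to 99354006, and 194 kb away at 99460731 to 99461550. They were 633 and 820 bp wide (percentiles 97.6 and 99.6), against 257 bp for both regions at the gene itself. Spred1 had a pair 57.7 and 102 kb away, 219 and 397 bp wide, on the side of its start. Fgfr2 had 1, 146 kb away and 184 bp wide. Fgf4 and Spry4 had no further region up to 200 kb.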
